A study of Mus musculus with 24 samples.

Results

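The response to a liver-restricted deletion of *Crif1* was compared between inguinal white adipose tissue (iWAT), a subcutaneous fat depot, and the gastrocnemius muscle (GM) of the calf. The comparison used 12 of the 24 libraries of the series, 3 for each of 2 genotypes in each of 2 tissues, and asked whether the knockout altered a transcript alike in both tissues or unequally. Of 24532 genes listed, 10250 were tested, namely those at 1 FPKM (fragments per kilobase of a transcript, relative to the depth of sequencing) or more in at least 3 of the 6 libraries of each tissue. The control group (Ctrl) was Crif1flox/flox and the knockout group (LKO) Alb-Cre;Crif1flox/flox, so that both carried the floxed alleles. All mice were C57BL/6, were labelled as 8 weeks old and had no labelled treatment. Cre recombinase was driven by the albumin promoter, which is active in hepatocytes, so that differences in iWAT and GM arose in tissues where the gene was not targeted. No group carried the Cre without the floxed alleles. The labels do not state whether iWAT and GM of the same number came from 1 mouse, nor that the libraries of a group came from separate mice, and the p-values measure only the spread between these libraries.

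CRIF1, encoded by the gene listed as *Gadd45gip1*, belongs to the mitochondrial ribosome, and its loss impairs synthesis of the respiratory chain subunits encoded by mitochondrial DNA. Liver cells under such stress secrete the hormones FGF21 and GDF15, and a liver with altered glucose and lipid output also changes the fuels and hormones that reach other organs. White fat stores and releases fatty acids, whereas skeletal muscle burns them or glucose. Transcripts that follow fasting, insulin or glucocorticoids are partly common to both tissues and partly particular to each.

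The inferred depth was 4.625 to 7.948 gigabases per library in iWAT and 4.447 to 5.925 in GM. Across genes, libraries of the same group correlated at 0.9794 to 0.9928 on log2(FPKM + 1), and libraries of different tissues at 0.7064 or less. *Gadd45gip1* was at 11.6 to 16.0 FPKM in the iWAT Ctrl libraries and 10.4 to 12 in the iWAT LKO libraries, and at 12.9 to 15.9 and 12.7 to 17.4 FPKM in the GM Ctrl and LKO libraries. Both pairs of groups overlapped. The defining markers were those of the labelled tissues, since *Adipoq*, encoding adiponectin, was at 2784 FPKM or more in each iWAT library and the summed level of 15 skeletal muscle markers was at 145160 FPKM or more in each GM library. Other cells were present in unequal amounts. The muscle sum reached 859 FPKM in iWAT Ctrl 1 and 1329 in iWAT LKO 2 against 58.1 to 141 in the other iWAT libraries. In GM, a sum of 8 hepatocyte markers was at 353 FPKM in Ctrl 1, 268 in Ctrl 3 and 146 in LKO 1 against 21.9 to 52.4 in the others, and a sum of lymph node markers was at 61.5 FPKM in LKO 1 against 16.0 or less. In iWAT the hepatocyte sum was nearly all *Cyp2e1*, at 813 to 2091 FPKM, and *Alb* was at 49.2 FPKM or less. A sum of 14 mammary epithelium markers was at 17.6 and 25.2 FPKM in iWAT LKO 1 and LKO 2 against 2.75 to 4.32 in the other iWAT libraries, and none of the 14 was among the tested genes.

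**Figure D1:**
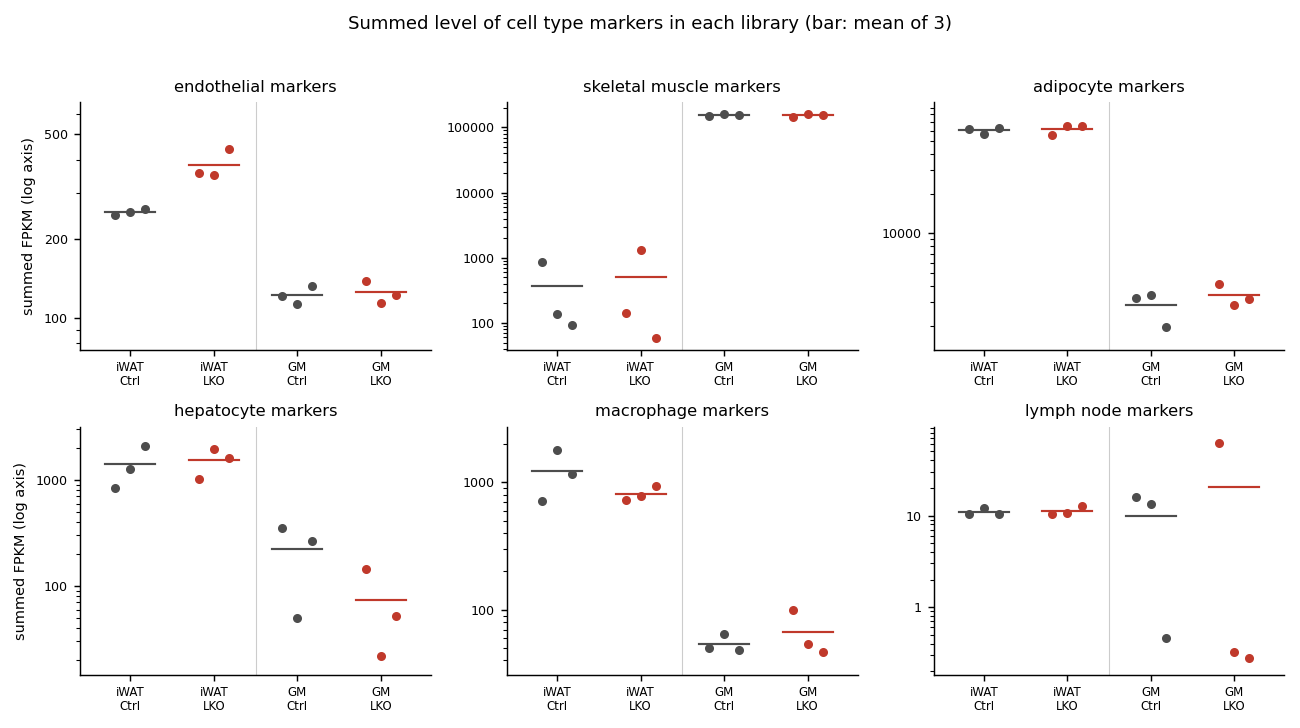
Summed FPKM of 6 sets of cell type markers (log axes) in each library of the 4 groups, with dots from left to right for replicates 1 to 3 and a bar at the mean of 3. Of these 6 sums the endothelial one alone is without overlap between the iWAT groups, at 247 to 261 in Ctrl and 351 to 442 in LKO, and the hepatocyte sum of GM Ctrl 1 and Ctrl 3 lies above those of the other GM libraries.

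A gene was called in a tissue where LKO and Ctrl differed at least 1.5-fold on log2(FPKM + 1), which is 0.585 on the log2 scale, with an unadjusted p under 0.05 in a limma model of the 12 libraries. The same limits applied to the interaction, which is the log2 fold change in iWAT minus that in GM. All fold changes below are log2 values of LKO against Ctrl on that scale, which understates the change of genes near 1 FPKM. Far more genes were called in iWAT than in GM. In iWAT 189 genes rose (1.84% of those tested) and 101 fell (0.985%), and in GM 53 rose (0.517%) and 28 fell (0.273%). After Benjamini-Hochberg adjustment over the 10250 genes, 143 genes (1.4%) passed in iWAT, 112 higher and 31 lower, and 0 (0%) in GM, where 593 had an unadjusted p under 0.05 and the smallest adjusted p was 0.225. The adjusted count in iWAT was 9 when each tissue was fitted alone. It was 15, 35 and 62 without iWAT LKO 3, LKO 2 and Ctrl 2, and 315 without iWAT LKO 1, where the unadjusted iWAT count was 477. In GM the unadjusted count was 197 and the adjusted one 16 without GM LKO 1.

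Of all tested genes, 16 (0.156%) were called in both tissues in the same direction, 11 higher and 5 lower, and 0 (0%) in opposite directions. The 16 genes made up 5.52% of the iWAT calls and 19.75% of the GM calls. None passed the adjusted criterion in both tissues. Of the 290 iWAT calls 8, of the 81 GM calls 4 and of the 295 interaction calls described further on 7 were of genes that reached 1 FPKM in 1 genotype only of a tissue, and 0 of the 16 were. For *Acer2* and *Mup10* in GM and *Smtnl2* in iWAT, however, most libraries of the lower group were under 1 FPKM. These genes were thus tested mainly through the group where they were high. At an unadjusted p under 0.05 in both, without a limit on the fold, 138 genes had the same sign and 34 opposite signs. The count of opposite calls was 2 without GM Ctrl 2, GM LKO 1 or iWAT LKO 1. Across all genes the log2 fold changes of both tissues correlated at 0.212, a description over genes that are not independent, and 5380 of them (52.49%) had the same sign. Among called genes the same sign was more frequent, for 208 of the 290 iWAT calls in GM and 60 of the 81 GM calls in iWAT. The count of 16 moved with single libraries. It was 9 without GM Ctrl 1 and 9 without GM LKO 2, and 10 without both GM Ctrl 1 and GM Ctrl 3, whereas it was 31 without GM LKO 1, the library with the highest lymph node and adipocyte markers of GM.

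**Figure D2:**
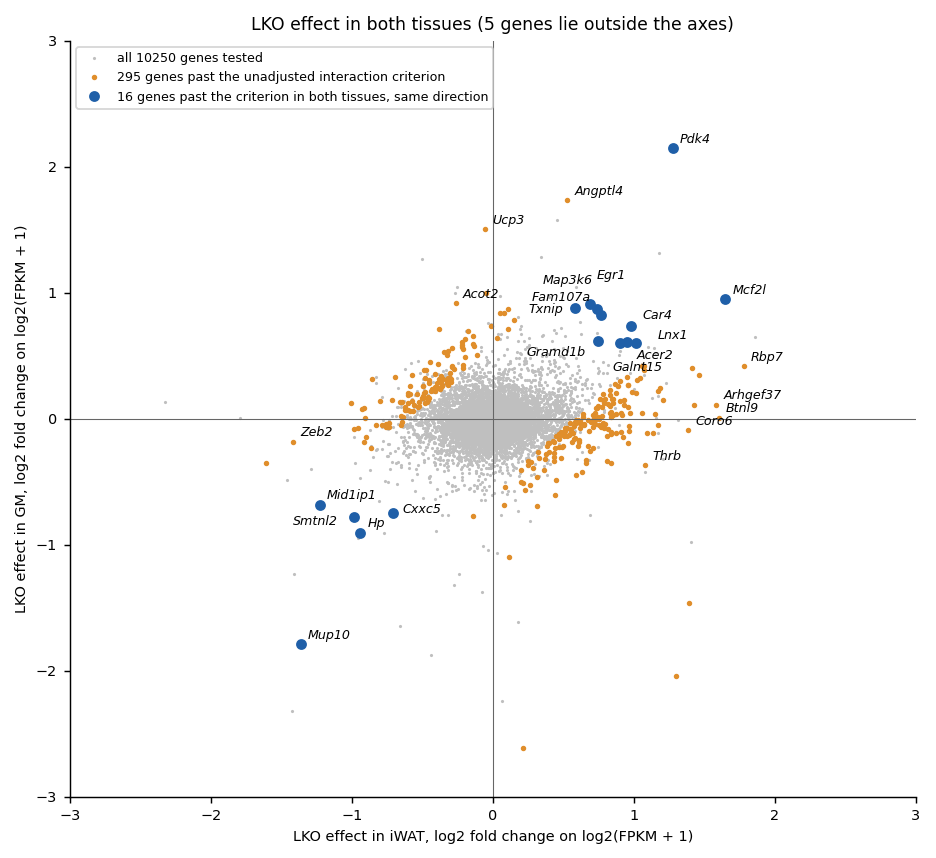
Log2 fold change of LKO against Ctrl on log2(FPKM + 1) in iWAT (horizontal) and GM (vertical), 1 point per tested gene. The 16 genes called in both tissues (blue) lie in the upper right and lower left, with Pdk4 highest, and the 295 genes past the unadjusted interaction criterion (orange) lie mostly along the horizontal axis or in the quadrants of opposite sign.

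The shared genes that rose are described first, beginning with fuel choice. *Pdk4* (NCBI Gene 27273, mm10 chromosome 6 from 5483351 to 5496278, minus strand) encodes a kinase that inactivates pyruvate dehydrogenase and so spares glucose when fatty acids are burnt. It was at 73.3, 55.8 and 63.9 FPKM in the iWAT Ctrl libraries and 150.3, 129 and 197 in the iWAT LKO libraries. In GM it was at 58.3, 176 and 165 FPKM in Ctrl and 359.7, 690.4 and 609.6 in LKO. The groups did not overlap in either tissue, although GM Ctrl 1 was well below the other GM controls. The log2 fold change was 1.28 (SE 0.38, unadjusted p = 0.00604) in iWAT and 2.15 (SE 0.38, unadjusted p = 0.000135) in GM. The difference between the tissues, -0.87 (SE 0.53), did not pass the interaction test (unadjusted p = 0.131). *Pdk4* kept its call in both tissues under each of the 26 other settings run, and was the only shared gene to do so.

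*Txnip*, encoding thioredoxin-interacting protein, a brake on glucose uptake, reached 435, 682 and 732 FPKM in iWAT Ctrl and 729, 1049.5 and 959.7 in iWAT LKO. The lowest LKO library lay just below the highest Ctrl library. In GM it was at 204, 162 and 208 FPKM in Ctrl and 356, 358 and 339.9 in LKO, without overlap. The log2 fold change was 0.59 (SE 0.20) in iWAT and 0.88 (SE 0.20) in GM. The iWAT call was at the limit and was lost without Ctrl 1 (0.35), LKO 2 (0.48) or LKO 3 (0.54). *Txnip* overlaps the antisense gene *Gm15441*, and the labels name no strand-specific counting, so that reads of the pair cannot be told apart. *Acer2*, an alkaline ceramidase that turns ceramide into sphingosine, was at 16.3, 13.8 and 16.9 FPKM in iWAT Ctrl and 22.8, 37.6 and 35.6 in iWAT LKO. Its level in GM was lower throughout, at 0.857, 1.06 and 0.844 FPKM in Ctrl and 1.70, 2.31 and 1.77 in LKO. Neither tissue had an overlap. The log2 fold changes were 0.96 (SE 0.16) in iWAT and 0.61 (SE 0.16) in GM, where the call was lost without Ctrl 1 (0.58), Ctrl 3 (0.58) or LKO 2 (0.51). *Acer2* was the only one of 17 tested genes, of a list of 25 ceramide genes, that was called in either tissue.

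The windows from 250 bases before to 50 bases after the start site of 4 shared genes that rose are given here from RefSeq on GRCm38.p6, 5′ to 3′ on the strand of the gene, because such genes changed together in both tissues. They were chosen to show a window with a FOXO motif (*Txnip*, chr3:96557707-96558006, plus strand), one with repeated glucocorticoid receptor motifs (*Fam107a*, chr14:8309728-8310027, minus strand) and those of *Pdk4* (chr6:5496229-5496528, minus strand) and *Acer2* (chr4:86874164-86874463, plus strand), which hold none of the motifs searched. Capitals mark the matches.
Txnip: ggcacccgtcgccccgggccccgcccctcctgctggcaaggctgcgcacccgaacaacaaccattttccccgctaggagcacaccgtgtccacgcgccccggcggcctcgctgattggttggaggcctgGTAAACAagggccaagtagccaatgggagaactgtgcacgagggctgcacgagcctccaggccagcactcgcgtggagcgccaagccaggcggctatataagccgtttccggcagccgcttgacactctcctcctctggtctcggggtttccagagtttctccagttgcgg
Fam107a: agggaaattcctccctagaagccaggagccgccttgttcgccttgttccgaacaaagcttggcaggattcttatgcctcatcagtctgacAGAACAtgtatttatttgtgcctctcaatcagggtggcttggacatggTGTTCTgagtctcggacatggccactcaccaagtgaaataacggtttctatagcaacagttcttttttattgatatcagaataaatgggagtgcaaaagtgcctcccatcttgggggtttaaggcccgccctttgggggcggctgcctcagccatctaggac
Pdk4: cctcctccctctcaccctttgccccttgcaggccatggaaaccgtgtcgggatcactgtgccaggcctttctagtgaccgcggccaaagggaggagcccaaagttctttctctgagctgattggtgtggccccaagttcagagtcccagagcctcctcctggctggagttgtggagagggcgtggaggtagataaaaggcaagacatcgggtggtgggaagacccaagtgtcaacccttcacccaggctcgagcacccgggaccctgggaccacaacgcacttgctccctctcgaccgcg
Acer2: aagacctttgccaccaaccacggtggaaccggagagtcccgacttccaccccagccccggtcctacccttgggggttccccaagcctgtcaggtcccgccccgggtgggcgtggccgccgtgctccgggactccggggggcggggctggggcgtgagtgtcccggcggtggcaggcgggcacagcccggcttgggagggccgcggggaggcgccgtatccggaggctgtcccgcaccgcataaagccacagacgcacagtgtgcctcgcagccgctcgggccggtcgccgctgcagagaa
The motifs searched on both strands were the FOXO motif GTAAACA, the core AGAACA bound by a glucocorticoid receptor monomer, the E-box CACGTG, the nuclear receptor core AGGTCA and the CArG box by its name. Windows of 12 of the 16 shared genes were searched. Those of *Egr1*, *Cxxc5*, *Gramd1b* and *Hp* were not, so that the counts below say nothing about these genes. GTAAACA was found in 1 of the 12, *Txnip* at -121 from the start site, and in 3.65% of all 32851 windows. AGAACA was found in 2, *Fam107a* at -160 and -112 and *Mid1ip1* at -65, against 19.0% of all windows. CACGTG was found in 1 (*Lnx1*, 7.15% of all windows), AGGTCA in 2 (*Galnt15* and *Map3k6*, 16.3%) and the CArG box in 0 (1.63%). A match is a description of these letters, and a window without one says nothing about sites elsewhere.

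The signalling genes among the shared ones were led by *Mcf2l*, a guanine nucleotide exchange factor for small GTPases. It was at 3.14, 3.41 and 4.91 FPKM in iWAT Ctrl and 9.61, 14.4 and 19.3 in iWAT LKO, and at 1.5, 4.11 and 6.47 in GM Ctrl and 8.09, 7.16 and 8.20 in GM LKO. Neither tissue had an overlap, but the GM controls spread over more than their distance to the LKO libraries. The log2 fold change was 1.65 (SE 0.34) in iWAT and 0.95 (SE 0.34) in GM, and the GM value was 0.51 without Ctrl 1 and no longer called. *Map3k6*, a stress-activated kinase, changed by 0.74 (SE 0.28) and 0.87 (SE 0.28). Its groups overlapped in iWAT, at 11.1 to 16.5 FPKM in Ctrl and 14 to 28.2 in LKO, and not in GM, at 1.32 to 3.34 and 3.96 to 5.86. The iWAT call was lost without Ctrl 1 (0.64), Ctrl 2 (0.67), LKO 2 (0.59) or LKO 3 (0.58), and the GM call without Ctrl 1 (0.63). *Egr1*, an immediate early transcription factor, was at 3.24 to 6.29 FPKM in iWAT Ctrl and 6.44 to 10.3 in iWAT LKO, and at 0.990 to 1.3 and 2.04 to 5.45 in GM, where LKO 2 was highest. Its log2 fold changes were 0.69 (SE 0.28) and 0.91 (SE 0.28). The first fell short without iWAT Ctrl 1 (0.51), Ctrl 2 (0.64) or LKO 3 (0.50), and the second without GM LKO 2 (0.57). *Lnx1*, a ubiquitin ligase, changed by 1.02 (SE 0.24) in iWAT without overlap of the groups, and by 0.60 (SE 0.24) in GM, where Ctrl 3 at 3.10 FPKM overlapped the LKO range of 2.68 to 3.61. Its GM call was lost without Ctrl 1 (0.34), Ctrl 2 (0.57), LKO 1 (0.60) or LKO 2 (0.52). *Lnx1* overlaps *Fip1l1* on the other strand.

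*Car4*, a membrane-bound carbonic anhydrase found on capillary endothelium, was among the steadier of the shared genes. It was at 24.6, 29.0 and 33.5 FPKM in iWAT Ctrl and 45.7, 69.1 and 61.9 in iWAT LKO. In GM it was at 2.32, 3.56 and 3.38 in Ctrl and 4.87, 7.22 and 5.33 in LKO. Neither tissue had an overlap, and the log2 fold changes were 0.98 (SE 0.19, adjusted p = 0.023 from limma) and 0.73 (SE 0.19, adjusted p = 0.47). No single library ended either call. *Gramd1b*, which carries cholesterol from the plasma membrane to the endoplasmic reticulum, had log2 fold changes of 0.75 (SE 0.17) in iWAT and 0.61 (SE 0.17) in GM with no overlap in either, and its GM call was lost without Ctrl 3 (0.45) or LKO 1 (0.53). *Galnt15*, an O-glycosylation enzyme, changed by 0.90 (SE 0.25) and 0.60 (SE 0.25), and *Fam107a*, a glucocorticoid-responsive actin-binding protein, by 0.76 (SE 0.29) and 0.82 (SE 0.29). For both the iWAT groups overlapped. In GM *Galnt15* was at 2.18 to 2.47 FPKM in Ctrl and 3.71 to 4.41 in LKO, a tight separation of a small change, and its call held only without LKO 1 among the 6 GM libraries left out in turn (0.55 to 0.64 without the others). *Fam107a* was at 1.25 to 1.98 FPKM in GM Ctrl and 2.96 to 4.19 in GM LKO, and lost its call in iWAT without Ctrl 1 (0.45), LKO 2 (0.60) or LKO 3 (0.61) and in GM without Ctrl 1 (0.71) or LKO 2 (0.74).

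**Figure D3:**
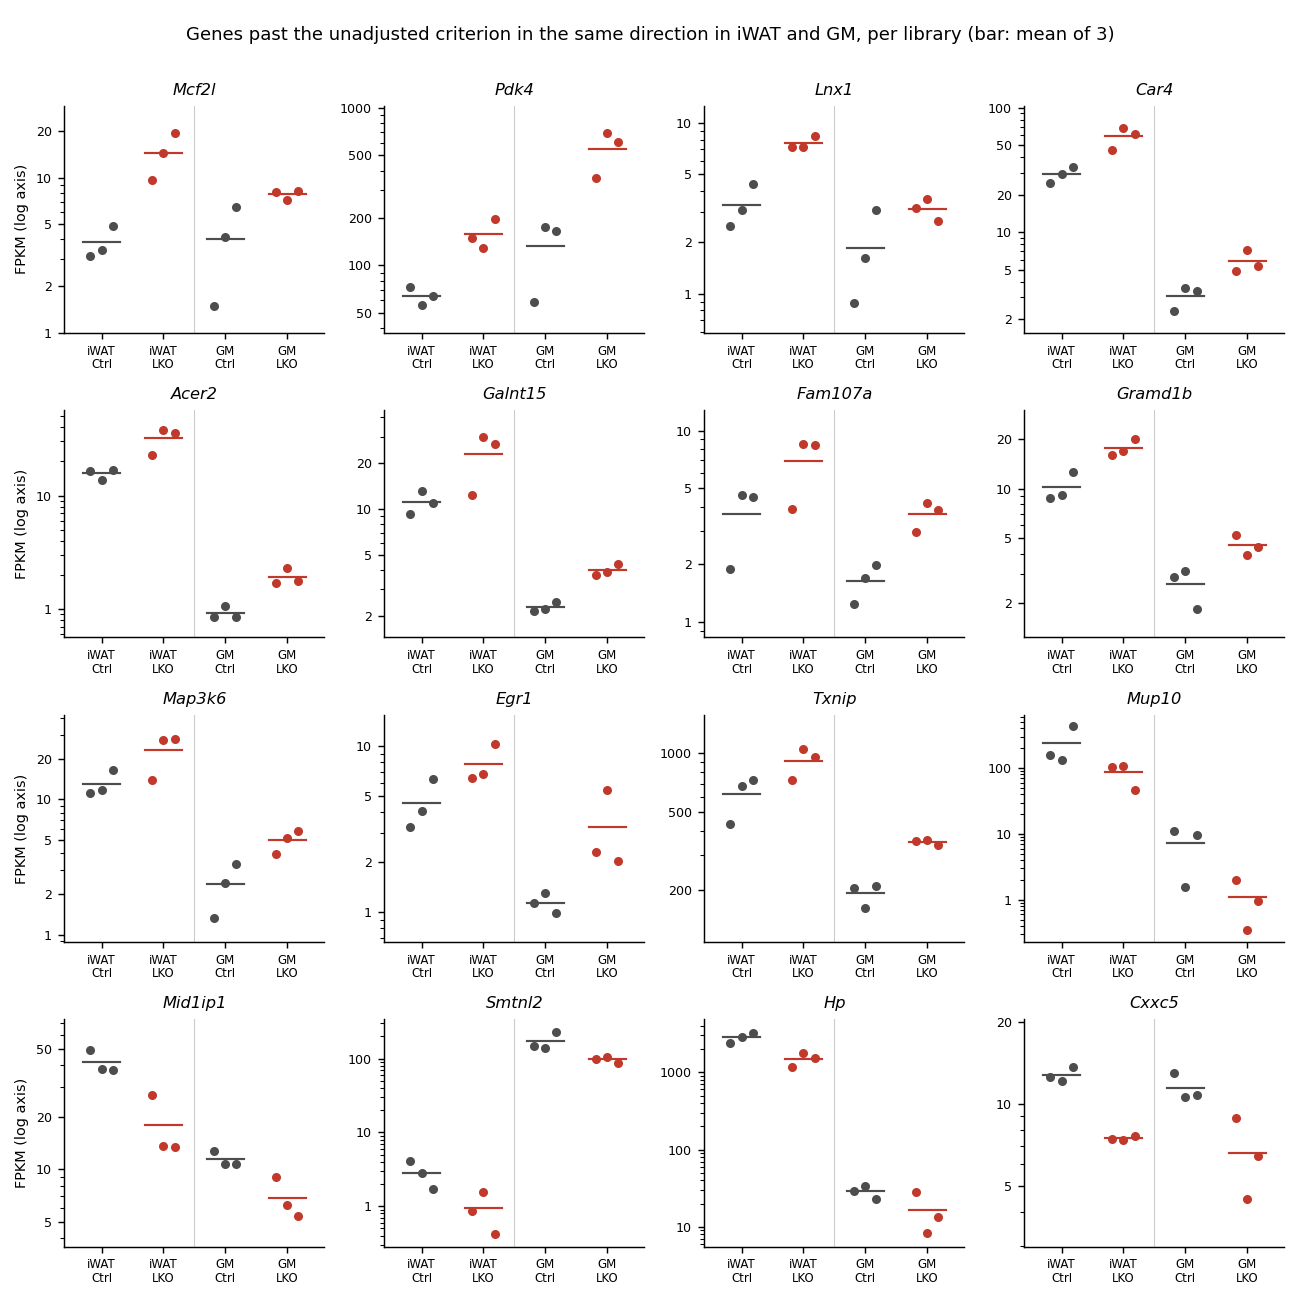
FPKM (log axes) of the 16 genes called in the same direction in both tissues, with 1 dot per library from replicate 1 to 3 and a bar at the mean of 3. The 11 genes that rose have LKO means above Ctrl means in both tissues, the 5 that fell have them below, and Fam107a, Map3k6, Galnt15 and Txnip overlap between the iWAT groups.

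Among the 5 shared genes that fell, *Mid1ip1* encodes a partner of acetyl-CoA carboxylase that promotes fatty acid synthesis. It was at 49.2, 38.2 and 37.8 FPKM in iWAT Ctrl and 27.1, 13.6 and 13.5 in iWAT LKO, and at 12.9, 10.7 and 10.8 in GM Ctrl and 9.01, 6.22 and 5.38 in GM LKO. In both tissues LKO 1 was nearest to the controls and the groups were apart. The log2 fold change was -1.23 (SE 0.24) in iWAT and -0.68 (SE 0.24) in GM, where the call was lost without LKO 3 (-0.55) or Ctrl 1 (-0.61). *Cxxc5*, a zinc finger protein that acts in Wnt signalling, was at 12.6, 12.2 and 13.7 FPKM in iWAT Ctrl and 7.40, 7.38 and 7.62 in iWAT LKO, one of the tightest separations among the shared genes. In GM it was at 13.0, 10.6 and 10.8 in Ctrl and 8.90, 4.46 and 6.42 in LKO. The log2 fold changes were nearly equal, -0.71 (SE 0.17) and -0.75 (SE 0.17), and the GM call was lost without LKO 2 (-0.53). *Smtnl2*, a smoothelin-like protein of muscle, was at 1.69 to 4.05 FPKM in iWAT Ctrl and 0.427 to 1.54 in iWAT LKO, against 139 to 228 and 87.0 to 106 in GM. Its log2 fold changes were -0.98 (SE 0.26) and -0.78 (SE 0.26). Its GM call was lost without Ctrl 3 (-0.57).

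The other shared genes that fell, *Hp* and *Mup10*, encode the secreted proteins haptoglobin and a major urinary protein, which hepatocytes also make in large amounts. *Hp* was at 2428, 2821 and 3234 FPKM in iWAT Ctrl and 1166, 1772 and 1523 in iWAT LKO, without overlap, and at 29.5, 34.2 and 23.1 in GM Ctrl and 28.1, 8.34 and 13.5 in GM LKO, with overlap. Its log2 fold changes were -0.94 (SE 0.33) and -0.91 (SE 0.33). They were no longer called without iWAT Ctrl 3 (-0.84) or LKO 1 (-0.77), or without GM Ctrl 2 (-0.78), LKO 2 (-0.53) or LKO 3 (-0.84). *Adipoq* in the same GM libraries was at 27.3, 39.1 and 6.62 FPKM in Ctrl and 48.1, 6.53 and 10.5 in LKO. *Mup10* was at 159.5, 132 and 429 FPKM in iWAT Ctrl and 103, 108 and 46.9 in iWAT LKO, and at 10.9, 1.59 and 9.68 in GM Ctrl and 2.03, 0.344 and 0.954 in GM LKO. The GM libraries with most *Mup10*, Ctrl 1 and Ctrl 3, were those with the most *Alb* (encoding albumin) at 167 and 125 FPKM, against 8.32 to 65.6 in the rest. Its log2 fold changes were -1.36 (SE 0.61) and -1.79 (SE 0.61), and the GM value was -0.38 without both of those controls. Without single libraries the *Mup10* call was lost in 8 of 12 cases, with -0.84 in iWAT without Ctrl 3, -0.98 without LKO 3, and -1.40 and -1.48 in GM without Ctrl 1 and Ctrl 3. The iWAT call was also lost with a pseudocount of 0.1, the deposited TPM, ordinary variances or no filter on low values (-1.34 to -1.37). The part of fat or liver RNA in the GM values of *Hp* and *Mup10* was not tested. *Mup10* belongs to a family of near-identical genes whose reads may have been split among them. In all bulk tissue values here, fewer cells of a type and less RNA per cell cannot be told apart.

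The interaction p-values of the 16 shared genes ranged from 0.131 to 0.947, and none was called as unequal. In the liver, where the gene was deleted, 8 of the 16 could be tested, and 6 were called in the same direction as in iWAT and GM. These were *Pdk4* (4.20), *Egr1* (2.82), *Txnip* (1.62), *Acer2* (1.02), *Mup10* (-2.28) and *Mid1ip1* (-0.65), in a tissue where 25.2% of the tested genes rose and 3.75% fell. The liver values depended on the scaling, since the median over all liver genes was 0.33 on the FPKM scale and -0.01 after median-ratio scaling, where 10.7% rose and 8.61% fell. The calls numbered 6 on that scale too. *Hp* was at -0.58 (unadjusted p = 0.107) in liver and at -0.97 (unadjusted p = 0.0508) after median-ratio scaling, *Mid1ip1* was at -1.03 on the latter scale, and *Cxxc5* was at -0.05 and -0.43 (unadjusted p = 0.694 and 0.0333), under the fold limit on both. In the hypothalamus, where 0.166% of the tested genes rose and 0.166% fell, 13 of the 16 were tested and *Map3k6* alone was called, at 0.59.

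An unequal response had to pass a single test of the interaction and a shared one a test in each tissue, so that their counts rest on unlike criteria. The interaction was called for 175 genes (1.71%) with a higher change in iWAT and 120 (1.17%) with a lower one, whereas the split was 150 and 155 when libraries were scaled by median ratios. Of these 295 genes, 235 had the larger absolute change in iWAT and 60 in GM, and 122 were called in neither tissue. The signs were opposite in 211, but only *Alb* and *Hba-a1* were past 1.5-fold in both tissues, and for both the GM groups overlapped. The count was 457 without iWAT LKO 1, 450 without iWAT Ctrl 1 and 186 without both GM Ctrl 1 and GM Ctrl 3, the latter chosen after seeing the marker values. Only *Thrb* passed the adjusted interaction criterion (0.00976%), and 999 genes had an unadjusted interaction p under 0.05.

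*Thrb* (NCBI Gene 21834, mm10 chromosome 14 from 17660960 to 18038088, plus strand) encodes the thyroid hormone receptor beta, a nuclear receptor. It was at 4.53, 3.94 and 3.05 FPKM in iWAT Ctrl and 9.49, 9.25 and 8.74 in iWAT LKO, and at 3.84, 3.07 and 3.44 in GM Ctrl and 2.73, 2.21 and 2.39 in GM LKO. The groups were apart in both tissues and in opposite directions, with all LKO libraries high in iWAT and all low in GM. The log2 fold change was 1.08 (SE 0.11, unadjusted p = 1.24e-06) in iWAT. In GM it was -0.37 (SE 0.11, unadjusted p = 0.00818), which is under the 1.5-fold limit. The difference was 1.45 (SE 0.16), with an adjusted p of 0.0215 in the limma model over all genes. Leaving out single libraries gave differences of 1.33 to 1.55. The adjusted p was then above 0.05 in 7 of 12 cases, up to 0.119 without GM LKO 3. It was 0.0603 with ordinary variances. The windows at the start sites of *Thrb* (chr14:17660710-17661009, plus strand) and of *Ucp3* (chr7:100472741-100473040, plus strand), described next, are shown from RefSeq on GRCm38.p6 because *Thrb* alone passed the adjusted criterion and *Ucp3* had the most negative of the called interactions, with AGGTCA in capitals.
Thrb: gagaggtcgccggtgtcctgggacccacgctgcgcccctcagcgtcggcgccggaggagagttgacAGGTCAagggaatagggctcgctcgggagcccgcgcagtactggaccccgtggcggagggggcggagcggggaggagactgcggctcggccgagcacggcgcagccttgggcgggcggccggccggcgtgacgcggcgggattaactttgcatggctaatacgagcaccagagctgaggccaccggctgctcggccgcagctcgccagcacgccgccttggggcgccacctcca
Ucp3: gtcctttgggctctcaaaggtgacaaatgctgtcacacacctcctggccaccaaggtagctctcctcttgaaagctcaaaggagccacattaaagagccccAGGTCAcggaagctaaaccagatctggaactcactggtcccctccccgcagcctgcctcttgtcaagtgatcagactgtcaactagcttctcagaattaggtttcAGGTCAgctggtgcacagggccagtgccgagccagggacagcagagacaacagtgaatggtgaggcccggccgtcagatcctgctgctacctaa
The core AGGTCA occurred at -184 in *Thrb* and at -149 and -44 in *Ucp3*, and in 16.3% of all windows.

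The other positive interactions described, predicted genes left out, are the largest among those without overlap in the tissue of the larger change, and all but 1 were rises in iWAT with less change in GM. The called interactions of *Hba-a1* (3.34), *Abi3* (3.10), *Alb* (2.86) and *Mup3* (2.83) were larger, but their GM groups, which had the larger change, overlapped. *Btnl9*, a butyrophilin-like membrane protein, was at 7.25, 7.17 and 7.68 FPKM in iWAT Ctrl and 18.8, 25.9 and 29.7 in iWAT LKO, against 1.09 to 1.5 and 0.885 to 1.70 in GM. Its interaction was 1.60 (SE 0.23, adjusted p = 0.0599 from limma). *Arhgef37*, a guanine nucleotide exchange factor, was at 1.05, 1.45 and 1.59 FPKM in iWAT Ctrl and 4.53, 5.97 and 8.12 in iWAT LKO, against 0.994 to 1.44 in all GM libraries, with an interaction of 1.47 (SE 0.22). *Coro6*, a coronin that binds actin and is abundant in muscle, rose from 2.42 to 3.55 FPKM in iWAT Ctrl to 6.53 to 11.2 in iWAT LKO and was at 82.8 to 98.2 in GM, with an interaction of 1.47 (SE 0.23), which was not called with all 24 libraries in 1 fit (unadjusted p = 0.0831 from limma). The muscle markers of iWAT were highest in Ctrl 1 and LKO 2, where *Coro6* was at 3.55 and 9.73 FPKM. Retinol-binding *Rbp7* had iWAT and GM log2 fold changes of 1.78 and 0.41, *Elmod2*, a GTPase-activating protein, 1.13 and -0.11, and *Etl4* 1.17 and -0.05. For each of these genes the iWAT groups did not overlap and the GM groups did. *Mir2861* (0.12 and -1.10) is a short feature whose value may hold reads of a longer transcript around it.

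At the other end, *Ucp3* and genes of fatty acid handling rose in GM. *Ucp3*, a mitochondrial uncoupling protein of muscle, was at 22.7, 50.0 and 45.2 FPKM in GM Ctrl and 73.9, 146 and 114 in GM LKO. In iWAT it was at 22.7 to 29.9 FPKM in Ctrl and 18.2 to 38.1 in LKO, with overlap. The log2 fold change was 1.5 (SE 0.34) in GM and -0.06 (SE 0.34) in iWAT, an interaction of -1.56 (SE 0.49, unadjusted p = 0.0083), which was -1.14 and not called without both GM Ctrl 1 and GM Ctrl 3. *Angptl4*, an inhibitor of lipoprotein lipase, was at 3.76, 5.91 and 2.57 FPKM in GM Ctrl and 25.4, 11.5 and 12 in GM LKO. In iWAT it was at 312, 249.7 and 369 in Ctrl and 502, 379 and 454 in LKO. Both tissues were without overlap, with log2 fold changes of 1.73 (SE 0.30) in GM and 0.53 (SE 0.30, unadjusted p = 0.104) in iWAT. GM LKO 1, the highest GM library for *Angptl4*, also had the highest adipocyte markers of GM, whose part in the value was not tested. The interaction of *Angptl4* was -1.21 (SE 0.42) and was no longer called without both GM Ctrl 1 and GM Ctrl 3 (-0.71) or both iWAT Ctrl 1 and iWAT LKO 2 (-1.08). *Acot2*, a mitochondrial acyl-CoA thioesterase, was at 5.34, 5.52 and 5.0 FPKM in GM Ctrl and 7.91, 14 and 11.5 in GM LKO, a change of 0.92 (SE 0.17) against -0.26 in iWAT. *Mir22* (0.71 in GM and -0.38 in iWAT) lies within its host transcript.

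Other negative interactions were falls in iWAT. *Zeb2*, a transcriptional repressor, was at 35.6, 31.9 and 22.6 FPKM in iWAT Ctrl and 10.8, 12.5 and 8.34 in iWAT LKO, a change of -1.42 (SE 0.18) against -0.18 in GM. *Adamts5*, a protease of the extracellular matrix, fell by 1.01 on the log2 scale in iWAT with 0.13 in GM, and *Rasl11b*, a small GTPase, fell by 0.86 with 0.32 in GM. For both the iWAT groups were apart and the GM groups overlapped.

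**Figure D4:**
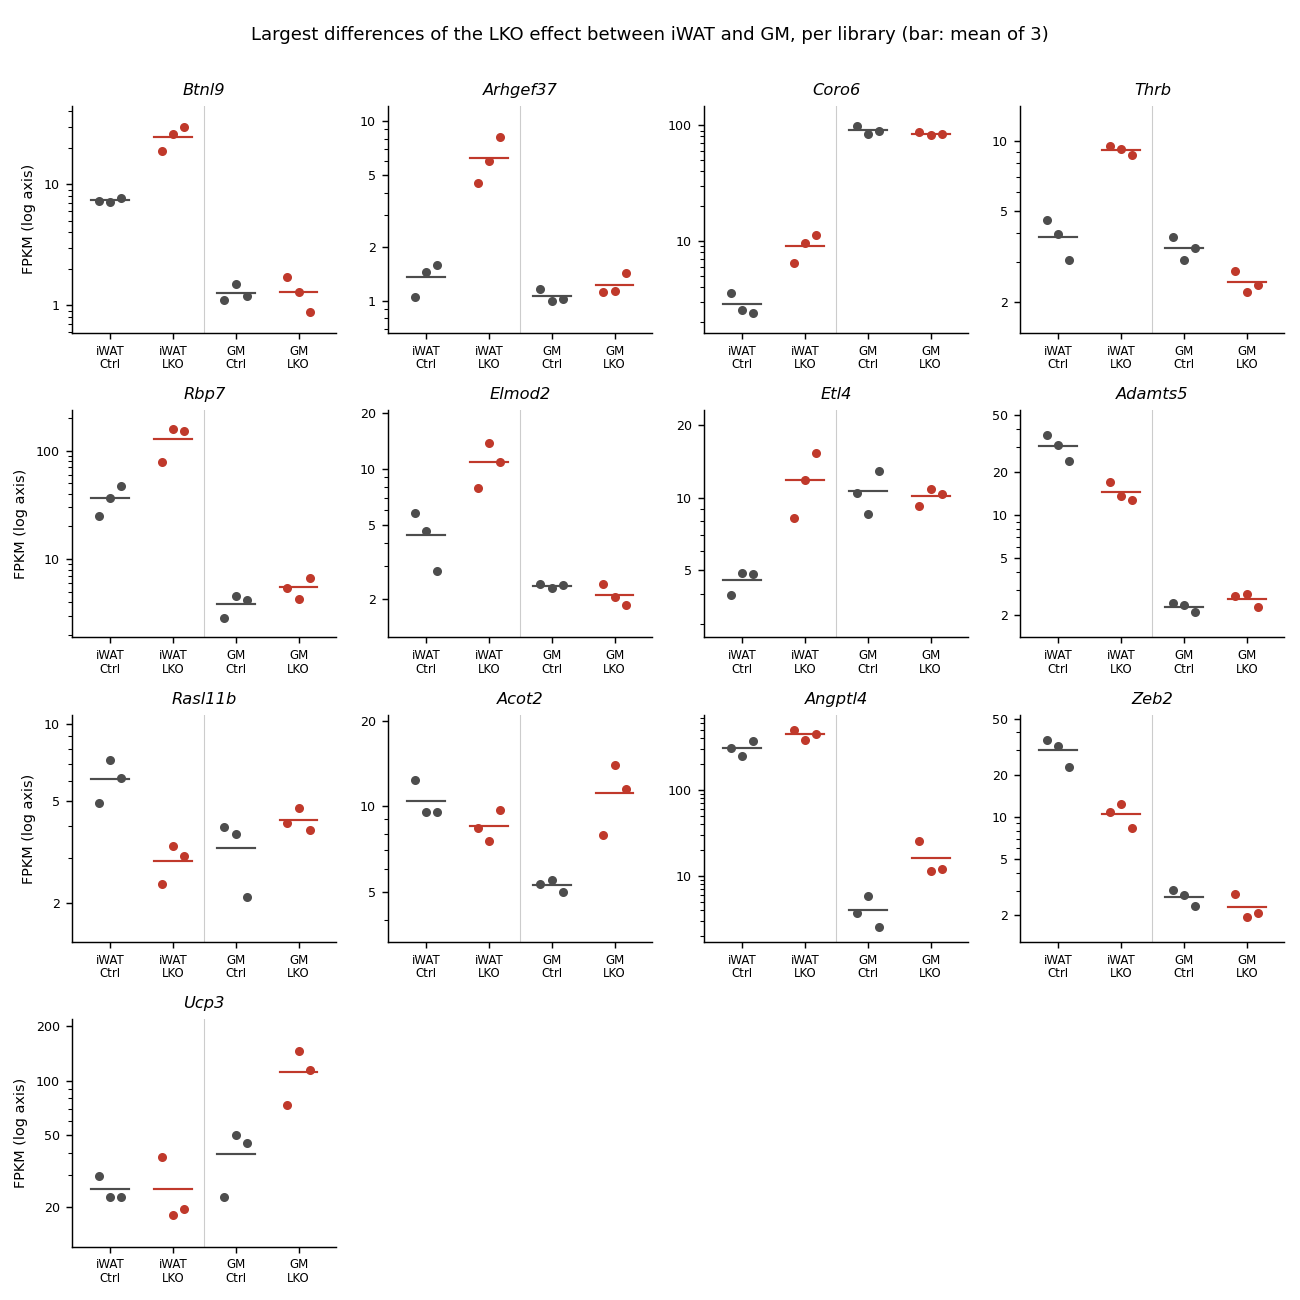
FPKM (log axes) of 13 of the 16 genes with the largest interaction of genotype and tissue among those without overlap in the tissue of the larger change, predicted genes left out and Mir22 and Mir2861 not shown, with 1 dot per library from replicate 1 to 3 and a bar at the mean of 3. Thrb is higher in all LKO libraries of iWAT and lower in all of GM, Btnl9, Arhgef37, Coro6, Rbp7, Elmod2 and Etl4 are separated in iWAT only, and Ucp3 and Acot2 in GM only.

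Opposed directions were also read from the ranges of the groups, since no gene was called in opposite directions. With 3 libraries against 3 the smallest exact permutation p is 0.1, so that groups are often apart without any effect. The counts below were not tested against that frequency. The groups did not overlap for 2158 genes (21.1%) in iWAT and 1151 (11.2%) in GM. They were apart in both tissues for 95 genes higher in both (0.927%), 101 lower in both (0.985%), 54 higher in iWAT and lower in GM (0.527%) and 18 lower in iWAT and higher in GM (0.176%). Of these 72 opposed genes, 28 were also past the interaction criterion, 9 past the criterion in iWAT and 1, *Synj2*, in GM. The genes named here were chosen after their values were seen. *Pdgfb*, a growth factor that recruits pericytes, was at 9.84 to 12 FPKM in iWAT Ctrl and 13.1 to 21.3 in iWAT LKO, and at 13.5 to 15.6 and 8.49 to 12.1 in GM, with log2 fold changes of 0.59 (SE 0.16) and -0.45 (SE 0.16). The Notch ligand *Jag2* had 0.69 and -0.25, the Notch ligand *Dll1* 0.45 and -0.49 and the proton-sensing receptor *Gpr4* 0.71 and -0.24. Thrombomodulin, *Thbd*, went the other way, at -0.47 and 0.38, with 50.7 to 57.0 FPKM in iWAT Ctrl and 32.1 to 43.7 in iWAT LKO, and 5.38 to 6.88 and 8.06 to 8.76 in GM. *Tppp*, a tubulin-polymerizing protein, had 0.63 and -0.42, and the phosphoinositide phosphatase *Synj2* -0.20 and 0.63. The interactions of these 7 genes, from 0.83 to 1.05 in absolute size, had adjusted p-values of 0.1059 or more from limma. Each was called without any 1 of the libraries, which adds no support, since the genes were picked with the groups apart in both tissues.

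Of 9 endothelial markers, 4 rose in iWAT, against 1.84% of all genes, and the same 4 passed the interaction criterion, against 1.71%, whereas 0 were called in GM. *Kdr*, a receptor for vascular endothelial growth factor, was at 16.9 to 19.8 FPKM in iWAT Ctrl and 26.8 to 37.3 in iWAT LKO, and at 8.30 to 10.2 and 6.20 to 9.21 in GM, with log2 fold changes of 0.81 (SE 0.15) and -0.33 (SE 0.15). *Cdh5* had 0.77 and -0.06, *Cldn5* 0.83 and 0.05, and *Flt1* 0.99 and 0.21. Only the interaction of *Cldn5* depended on a single library, GM LKO 2, without which it was 0.57. The median over the 9 markers was 0.55 in iWAT and 0.11 in GM, against -0.01 and -0.03 over all genes. The part of endothelial RNA in the iWAT values of *Btnl9*, *Rbp7*, *Car4* or the Notch ligands was not tested. Of 8 nerve markers, 2 rose in iWAT and 0 were called in GM, with medians of 0.53 and 0.13. Their sum was without overlap in both tissues, at 323 to 428 FPKM in iWAT Ctrl and 439 to 525 in iWAT LKO, and at 149.7 to 167.9 and 168.2 to 209 in GM, and its part in other results was not tested. *Prx*, a structural protein of myelinating Schwann cells, was at 0.60 in iWAT and fell short without Ctrl 1, LKO 2 or LKO 3 (0.48 to 0.53).

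Counts of called list members in each tissue are given for the tested members, and over all tested genes 1.84% rose and 0.985% fell in iWAT and 0.517% rose and 0.273% fell in GM. The lists were not tested for a difference between the tissues. Of 23 tested genes of fatty acid use and PPAR targets, 3 rose in iWAT, 6 rose in GM and 0 fell in either, and 20 and 18 were above 0. The medians were 0.44 in iWAT and 0.16 in GM. *Pdk4* was the only member called in both. *Ppara*, the nuclear receptor itself, rose in iWAT (0.60, SE 0.15; 0.43 without Ctrl 2 and 0.52 without LKO 1, not called) with 0.30 in GM, and *Cpt1b*, the muscle form of the carnitine palmitoyltransferase of fatty acid import, was at 1.73 to 14.2 FPKM in iWAT Ctrl and 10.1 to 23.4 in iWAT LKO (1.32, SE 0.48), a value no longer called without Ctrl 3 (0.64), LKO 1 (1.24) or LKO 3 (1.07). In GM the other members called were *Angptl4*, *Cpt1a* (0.66, SE 0.20), *Ucp3*, *Acot1* (0.71, SE 0.14) and *Acot2*. *Cpt1a*, the form that liver and fat use, was at 1.94 to 2.66 FPKM in GM Ctrl and 4.02 to 4.53 in GM LKO, and its iWAT value of 0.51 was under the fold limit. Its GM call was lost without Ctrl 1 (0.58). *Cd36*, a fatty acid transporter, was separated in both tissues with small changes, at 805 to 951 and 1116 to 1250 FPKM in iWAT and 82.4 to 91.4 and 99.6 to 119 in GM (0.47 and 0.28).

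Of 24 tested FOXO targets and atrophy genes, 2 rose in iWAT (*Txnip* and *Fbxo21*) and 4 in GM (*Txnip*, *Foxo1*, *Sesn1* and *Gadd45a*), against 1.84% and 0.517% of all genes, and 0 fell. *Foxo1*, encoding the insulin-restrained transcription factor, was at 3.30, 3.25 and 3.17 FPKM in GM Ctrl and 6.17, 5.97 and 7.70 in GM LKO, with all LKO libraries clearly above. In iWAT it was at 25.3 to 36.4 and 29.7 to 31.8. The log2 fold changes were 0.84 (SE 0.13, unadjusted p = 3.23e-05) and 0.08, and the interaction was called at -0.76 (SE 0.18). *Foxo1* kept both calls without any 1 of the libraries, whereas *Gadd45a* (0.60) lost its call without GM Ctrl 3 (0.43), LKO 2 (0.56) or LKO 3 (0.53). *Sesn1*, a sestrin that restrains mTORC1, was at 0.78 in GM and 0.15 in iWAT, with an interaction that was lost without any of iWAT Ctrl 2, Ctrl 3 or LKO 1 or GM Ctrl 3, LKO 2 or LKO 3 (-0.44 to -0.62), and *Fbxo21*, a ubiquitin ligase subunit, at 0.04 in GM and 0.97 in iWAT. Of 27 insulin signalling genes, 0 were called in iWAT and *Foxo1* alone in GM. *Slc2a4*, the insulin-responsive glucose transporter, had 0.04 in iWAT, with overlap, and -0.13 in GM, where the highest LKO library (207.02 FPKM) lay just below the lowest Ctrl library (207.15). Of 23 glucocorticoid-responsive genes, 2 rose (*Fkbp5* 1.23, *Zbtb16* 1.86) and 1 fell (*Errfi1* -0.96) in iWAT, and 3 others rose in GM (*Mt1* 0.75, *Mt2* 1.28 and *Arrdc2* 0.97). The medians were similar, 0.34 in iWAT and 0.29 in GM, but no member was called in both. The *Fkbp5* controls of iWAT ran from 10.2 to 53.1 FPKM, and its call was lost without Ctrl 1 (0.67), Ctrl 2 (1.21), LKO 2 (1.02) or LKO 3 (1.08). *Mt1* was at 0.53 without GM LKO 2.

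**Figure D5:**
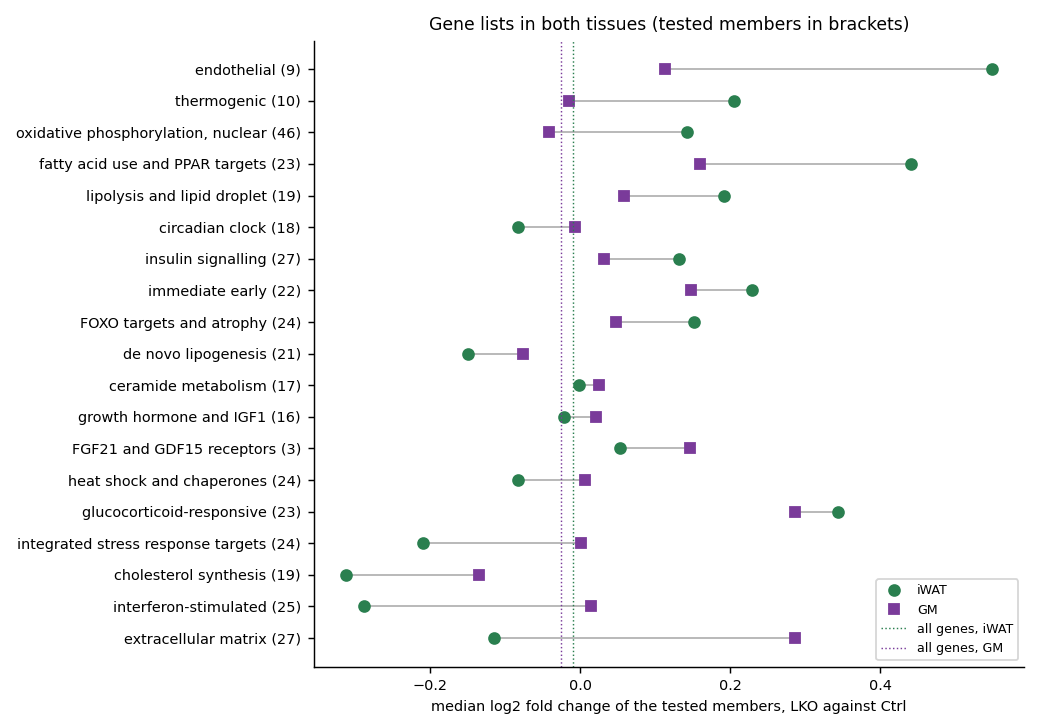
Median log2 fold change of LKO against Ctrl over the tested members of each gene list (number in brackets) in iWAT (green circles) and GM (purple squares), with dotted lines at the medians of all genes. Fatty acid use and glucocorticoid-responsive genes have positive medians in both tissues, cholesterol synthesis a negative one in both, and extracellular matrix and oxidative phosphorylation medians of opposite sign, for the extracellular matrix only with iWAT Ctrl 2 included. The oxidative phosphorylation median of GM lies near that of all genes.

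A minority of lipid synthesis genes fell in iWAT. Of 19 cholesterol synthesis genes, 5 fell in iWAT, among them *Sc5d*, *Fdft1*, *Msmo1* and *Insig1*, and 0 were called in GM. *Sc5d*, a late enzyme of the pathway, was at 39.2 to 67.0 FPKM in iWAT Ctrl and 19.2 to 39.7 in iWAT LKO, with overlap, a change of -0.86 (SE 0.26) against -0.22 in GM. Medians were below 0 in both tissues, -0.31 and -0.13, with 2 and 4 of 19 above 0, and without iWAT LKO 1 the iWAT calls were 11. *Fdft1* lost its call without Ctrl 1 or LKO 3 (-0.48 and -0.46), *Msmo1* without Ctrl 3, LKO 2 or LKO 3 (-0.49 to -0.59) and *Insig1* without Ctrl 3 or LKO 2 (-0.42 and -0.43). Of 21 genes of de novo lipogenesis, *Srebf1*, the factor that switches the pathway on, and *Pnpla3* fell in iWAT (-0.65, SE 0.16, and -0.98, SE 0.36) while *Acacb* rose (0.63, SE 0.14), 9 of the 21 were above 0 with a median of -0.15, and 0 were called in GM. *Pnpla3* kept its call without Ctrl 2 or LKO 1 but not without the other iWAT libraries (-0.76 to -0.89), and *Acacb* lost it without Ctrl 2, Ctrl 3 or LKO 1 (0.51 to 0.58). *Srebf1* was at 184 to 196 FPKM in iWAT Ctrl and 112 to 134 in iWAT LKO, and its GM value of -0.36 had an unadjusted p of 0.0437 but was under the fold limit. Among 19 tested genes of the lipolysis and droplet list, *Gpihbp1*, which anchors lipoprotein lipase on capillaries, and the glycerol channel *Aqp7* rose in iWAT (0.83 and 0.76). In GM *Plin4* (0.71), *Plin5* (0.61) and *Angptl4* rose and *G0s2*, an inhibitor of the triglyceride lipase ATGL, fell by 1.64 (SE 0.40). *Plin4* was not called without GM Ctrl 1 (0.53) or LKO 2 (0.56), nor *Plin5* without GM Ctrl 1, Ctrl 3 or LKO 2 (0.56 to 0.58). *G0s2* was at 45.7, 44.8 and 18.5 FPKM in GM Ctrl and 18.2, 7.68 and 7.2 in GM LKO, and in iWAT its value was -0.66 (unadjusted p = 0.127 from limma).

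The clock list, with 18 tested genes, had called members in both tissues, none of them the same. *Nr1d1*, encoding the clock repressor REV-ERB alpha, was at 37.9, 16.0 and 37.1 FPKM in iWAT Ctrl and 56.5, 84.3 and 96.2 in iWAT LKO, and at 36.4 to 45.0 and 52.2 to 58.0 in GM. The groups were apart in both tissues, with log2 fold changes of 1.41 (SE 0.28) and 0.40 (SE 0.28) and a called interaction of 1.01 (SE 0.40), which was lost without iWAT LKO 2, iWAT LKO 3, GM Ctrl 1 or GM LKO 3 (0.85 to 0.99). *Nr1d1* overlaps *Thra* on the other strand. Its relative *Nr1d2* rose in iWAT (0.83) and *Nfil3* fell by 0.60, the latter not without Ctrl 1, Ctrl 2 or LKO 2 (-0.45 to -0.58), while in GM only *Bhlhe41*, a repressor of the clock, was called, at 9.09 to 10.9 FPKM in Ctrl and 4.46 to 6.14 in LKO (-0.78, SE 0.15). The hours at which tissues were taken are not given in the labels. Of 22 immediate early genes, 4 rose in iWAT (*Egr1*, *Cyr61*, *Ctgf* and *Maff*), and in GM *Egr1* rose and *Klf2* fell by 0.76. *Cyr61*, a matrix-associated signal protein, had 0.74 in iWAT and 0.68 in GM, the latter with an unadjusted p of 0.0523, and its iWAT call was lost without Ctrl 1 (0.64), Ctrl 2 (0.76) or LKO 3 (0.43). *Ctgf* likewise kept its iWAT call only without Ctrl 2 or LKO 1 among the iWAT libraries (0.55 to 0.75 otherwise).

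Several lists had medians on different sides of 0 in the tissues. Of 27 extracellular matrix genes, 10 were above 0 in iWAT and 26 in GM, with medians of -0.12 and 0.29. *Fn1* and *Fbn1*, encoding the matrix proteins fibronectin and fibrillin, fell in iWAT by 0.66 and 0.59, and both passed the interaction criterion with *Sparc* (-0.13 in iWAT and 0.58 in GM) and *Col5a2* (-0.33 and 0.29). Each of these interactions was lost without iWAT Ctrl 2 (-0.44 to -0.60). Without GM LKO 1 those of *Fn1*, *Fbn1* and *Col5a2* were lost (-0.65, -0.65 and -0.52), without iWAT LKO 2 those of *Fbn1*, *Sparc* and *Col5a2* (-0.75, -0.62 and -0.56) and without GM Ctrl 3 those of *Fbn1* and *Col5a2* (-0.78 and -0.54). *Sparc* also lost it without GM Ctrl 1 (-0.62) or GM LKO 2 (-0.51), and with all 24 libraries in 1 fit. The direction of the iWAT median rested on Ctrl 2, without which it was 0.07 and the iWAT values were -0.44 for *Fn1* and -0.33 for *Fbn1*, which also lost its iWAT call without Ctrl 3, LKO 2 or LKO 3 (-0.50 to -0.59). Of 25 interferon-stimulated genes, 0 were above 0 in iWAT and 16 in GM, with medians of -0.29 and 0.01, and *Isg15*, *Ifit3* and *Oasl2* fell in iWAT. Without iWAT Ctrl 2, which also had the highest macrophage sum (1809 against 708 to 1157 FPKM in the other iWAT Ctrl and LKO libraries), 0 were called and the median was -0.15. The 3 calls were also lost without LKO 2 (-0.48 to -0.60). In GM 4 of the 25 were above 0 without LKO 1. Of 46 nuclear-encoded oxidative phosphorylation genes, 43 were above 0 in iWAT and 9 in GM, with medians of 0.14 and -0.04, and 0 were called in either tissue. For comparison, 4850 and 4108 of all 10250 genes were above 0, with medians of -0.01 and -0.03. The GM medians of the interferon and oxidative phosphorylation lists thus lay near that of all genes.

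Of 10 tested thermogenic genes, the mitochondrial subunits *Cox7a1* (1.17, SE 0.51) and *Cox8b* (0.82, SE 0.24) rose in iWAT and 0 were called in GM. *Cox7a1* was at 48.0, 23.0 and 6.47 FPKM in iWAT Ctrl and 34.3, 40.9 and 66.6 in iWAT LKO, with overlap, and it was at 0.44 and *Cox8b* at 0.52 without Ctrl 3. The *Cox7a1* p-value was near the limit, and its call was lost without 10 of the 12 libraries. It was also lost with a block for the replicate number, each tissue fitted alone, ordinary variances or no filter on low values. *Ucp1* and *Dio2*, the uncoupling protein and the deiodinase of thermogenic fat, were under 1 FPKM in GM in nearly all libraries and could not enter the comparison. In iWAT *Ucp1* was at 81.6, 31.4 and 4.50 FPKM in Ctrl and 106, 41.1 and 211 in LKO, with overlap. *Klb*, the co-receptor that FGF21 needs, was at 17.4 to 30.6 FPKM in iWAT and at 0.0255 to 0.246 in GM, while *Fgfr1*, its partner receptor, was at 69.8 to 105 and 16.5 to 24.8. Of the 3 receptor genes tested, *Fgfr3* rose in iWAT (0.78, SE 0.19), at 0.639 to 0.909 FPKM in Ctrl and 1.16 to 2.96 in LKO, and was at 0.58 without LKO 3. Since all its iWAT Ctrl libraries were under 1 FPKM, it was tested only through the group where it was high, and its call supports nothing further. Of 24 targets of the integrated stress response, 0 were called in iWAT and *Chac1*, a glutathione-degrading enzyme, rose in GM (1.57, SE 0.58), at 3.24, 19.3 and 5.32 FPKM in Ctrl and 10.1, 35.6 and 34.5 in LKO, which overlapped. Its value was 0.26 without GM Ctrl 1 and Ctrl 3, and its call was lost without any of Ctrl 1, Ctrl 3, LKO 2 or LKO 3 (1.10 to 1.39). Of 24 heat shock genes and 16 genes of growth hormone and IGF1 signalling, 0 were called in either tissue.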

How the data were processed

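RNA was read as paired ends after preparation with a TruSeq RNA v2 kit, which does not mark strand. The authors deposited FPKM per gene on mm10, scaled by them to the fragments of each library. They also deposited TPM, scaled by the authors to a fixed sum per library, and the mean coverage of transcripts, from which depth was inferred. The submitters' processing notes name FastQC 0.11.5, Trimmomatic 0.32, HISAT2 2.0.5, Bowtie2 2.2.6, STAR 2.5.2b and StringTie 1.3.3b without roles.

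The 12 libraries were fitted together with limma 3.58.1 in R 4.3.3 (group means, moderated variances with a trend) on log2(FPKM + 1), with contrasts for each tissue and for their difference. All p-values are two-sided. For 1 gene and 3 libraries against 3, the smallest exact permutation p is 0.1. Named genes were the shared ones, the 8 largest interactions in each direction without overlap in the tissue of the larger change, up to 4 called members per list and genes that the study names for fat or muscle. Chosen after their values were seen were the opposed genes other than *Thrb*, and *Acot1*, *Gadd45a*, *Mt1*, *Errfi1*, *Plin4*, *Plin5*, *Cyr61*, *Insig1*, *Sparc*, *Col5a2*, *Abi3* and *Mup3*. Some genes that these rules pick are not reported here. The comparison, lists and rules were chosen with earlier results of these data known. The model was run on simulated data with planted changes larger than most described here, in genes well above 1 FPKM. That run does not cover smaller changes or genes at low levels. The counts were recomputed under 24 other settings, and under 2 more chosen after seeing the marker values, as were most called values of named genes wherever the setting kept the gene. Values in liver and hypothalamus were recomputed under median-ratio scaling only. Tables were read with pandas 2.3.3 in Python 3.11.15, and matplotlib 3.10.9 made the plots.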

Additional observations from a re-analysis of the deposited data

Results flagged for a closer look

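*Thrb* was singled out because its LKO effect differed between the tissues by a test of the difference itself, at 1.45 on the log2 scale (SE 0.16, adjusted p = 0.0215 from limma), with all 3 LKO libraries above all 3 Ctrl libraries in iWAT and all below in GM. In liver its log2 fold change was -0.49 (unadjusted p = 0.00936 from limma) on the FPKM scale, where the median of all liver genes was 0.33, and -0.81 (unadjusted p = 0.00271) after median-ratio scaling, past the fold limit, and in hypothalamus it was 0.12.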

How the results depend on the processing

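The interaction count of 295 was 131 with a mean of at least 5 FPKM, 446 with the deposited TPM and 42 at 2-fold, and 186 to 457 without single or paired libraries. The adjusted interaction count of 1 was 2 with a pseudocount of 0.1, 6 without a filter, 0 with the mean of 5, 5 with median-ratio scaling, 8 with quantile normalization, 5 with each tissue alone and 26 with all 24 libraries, and 0 to 73 without libraries. The 16 shared genes became 6 with the mean of 5, 10 with ordinary variances, 2 at 2-fold and 9 to 31 without libraries. Opposite calls numbered 1 with a pseudocount of 0.1, 1 without a filter, 1 with TPM and 0 to 2 without libraries. The iWAT count of 290 was 121 with the mean of 5 and 44 at 2-fold, and 232 to 477 without libraries. The GM count of 81 was 140 with a pseudocount of 0.1, 141 without a filter, 39 with the mean of 5, 130 with TPM, 22 at 2-fold and 61 to 197 without libraries. The adjusted iWAT count of 143 was 58 with the mean of 5, 28 with ordinary variances, 9 with each tissue alone, 220 with all 24 libraries, 29 at 2-fold and 15 to 315 without libraries. The adjusted GM count of 0 was 6 with all 24 libraries and 0 to 16 without libraries. The causes of these moves were not tested, beyond the fewer genes tested with the mean of 5 and the higher limit at 2-fold. The change of the hepatocyte gene Serpina1a in GM was -2.60 without GM Ctrl 2, and it reversed to 0.37 without both GM Ctrl 1 and GM Ctrl 3.

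With a replicate block for the tissue samples of the same genotype and number, 289 interactions, 16 shared genes and 80 GM genes were called, and with a block for the number alone 313, 22 and 87, which changed no count by over 1.5 times. The labels do not say that the numbers pair the samples. Deviations of same-numbered libraries correlated at 0.0089 to 0.153, and 5 of 6 correlated best with their own number, a hint from the data and not the design, whereas limma's consensus correlation of same-numbered libraries was -0.0424. Depth is known only by inference, so that changes of genes near 1 FPKM cannot be given a counting error.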

Other observations

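Blood and other cells of the tissues gave values outside the comparisons above. *Lep*, encoding the fat hormone leptin, was at 198, 198 and 159 FPKM in iWAT Ctrl and 145, 55.4 and 51.7 in iWAT LKO, without overlap, and *Pparg*, the master regulator of fat cells, at 133 to 164 and 78.4 to 103. Their log2 fold changes were -1.29 (SE 0.57) and -0.63 (SE 0.24), and the *Lep* call was lost without any iWAT library but LKO 1 (-1.03 to -1.39) and without GM Ctrl 1, and also with a pseudocount of 0.1, TPM, ordinary variances or no filter on low values (-1.27 to -1.30). That of *Pparg* was lost without iWAT Ctrl 2 (-0.54) or LKO 1 (-0.50), and with TPM, a pseudocount of 0.1 or ordinary variances (-0.60 to -0.63). The other 10 adipocyte markers were not called in iWAT. *Hba-a2*, an alpha globin, was at 0.149 and 0.178 FPKM in GM Ctrl 1 and Ctrl 2 and at 86.6 to 118 in the other GM libraries, while its paralog *Hba-a1* was at 66.3 and 76.4 FPKM in those Ctrl libraries and at 1.98 to 13.7 in the others. The reads of both genes can be split between them, so that neither value stands alone.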
